A study of Mus musculus with 38 samples.

Results

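The mucosa of the colon was compared with the crypts of the proximal small intestine in vehicle-treated, vitamin D deficient mice. The members were the vehicle-treated colon libraries (6) and the vehicle-treated crypts libraries (6), taken from the sample titles, which make 12 of the 38 RNA-seq libraries of the series. The mice were wild-type C57BL6/J animals with vitamin D deficiency, given 0.1 ml of vehicle (propylene glycol and ethanol) by injection and killed 4 h afterwards. Both groups share the deficiency and the vehicle, so deficient and sufficient mice are not compared, and neither received the active hormone 1,25(OH)2D3. The labels give the age as 10 to 13.3 weeks in one field and 12 to 14 weeks in another, and the sex as pooled males and females; by Xist and Ddx3y, however, each library had the pattern of a single sex, 3 female and 3 male in colon and 5 female and 1 male in crypts.

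Per the labels' protocols, crypts came from 10 to 15 cm of proximal small intestine, were loosened with 3 mM EDTA and were parted from villi on a 70 µm filter. The colon was used from cecum to rectum, and its lining was scraped with glass until the muscle was left, so the scrapings can hold stroma as well as epithelium; the labels also attach the EDTA text to the colon samples. Organ, isolation method and table of values go together in this design and cannot be told apart. How many mice went into each library was not stated, so p-values here reflect the spread among these samples alone, and that spread may be technical. In bulk tissue, fewer cells of a type and less RNA per cell cannot be told apart either.

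The proximal small intestine digests and absorbs sugars, peptides, fat, iron and calcium, and the bases of its crypts hold stem cells and Paneth cells, which release antimicrobial peptides. The colon has crypts but no villi and, in the mouse, normally no Paneth cells; it reclaims salt and water, takes up the short-chain fatty acids made by bacteria, and covers itself with a thick mucus from goblet cells. Regional identity along the gut is held by transcription factors, with GATA4 and PDX1 marking the proximal end and the 5′ members of the HOX clusters the distal end.

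Values are FPKM (fragments per transcript length and library size) from 2 tables that the authors normalised separately. Each library was therefore centred on the median log2(FPKM + 0.5) of 10397 genes with a mean of 1 or more in both groups. Differences are colon minus crypts on that log2 scale, with the standard error from limma, and they understate the change of genes that are low in a group. A gene was tested where 6 or more of the 12 libraries reached 1 FPKM, and called at a limma adjusted p of 0.05 or less over the 11263 genes tested. A gene that is silent in one organ passes this filter only where all 6 libraries of the other reach 1 FPKM, so for such genes a difference is built into the choice. Ranges of FPKM are as deposited, before centring, across tables that were normalised separately, and pairs of medians give colon first; the depth was about 14.3 to 17.5 M reads per library.

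Markers of the labelled tissues were checked in every library first. Epcam, an adhesion protein of all intestinal epithelium, stood at 976 to 1399 FPKM (median 1263) in colon and 763 to 1207 (median 842) in crypts. Car1, the carbonic anhydrase of colonocytes, stood at 3093 to 8890.4 FPKM (median 5967) in colon and 0.0720 to 2.38 (median 1.12) in crypts. The Car1 groups were far apart, and those of Epcam overlapped. For every other called gene whose ranges are given below, the groups did not overlap, except Lct, Cyp3a11, Slc40a1 and Atp2b1; over all genes tested they did not overlap for 35.3%. Gata4, the proximal factor, stood at 47.5 to 69.5 FPKM (median 62.1) in crypts, and at 0 to 0.555 FPKM in 5 colon libraries. The library labelled colon replicate 5 held Gata4 at 11.2 FPKM, between the groups.

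Colon replicate 5 carried other small intestinal transcripts as well. Lyz1, the lysozyme of Paneth cells, was at 502 FPKM there and at 3.36 to 11.1 in the other 5 colon libraries, against 2831 to 8922 FPKM (median 4977) in crypts. Over the 13 Paneth cell genes that were lower in colon, the median level in replicate 5 was 9.18% of the crypts mean, and in the other 5 colon libraries it was 0% to 0.119%. Over 19 enterocyte hydrolase and carrier genes it was 17.8% in replicate 5, 8.02% in replicate 6 and 1.35% to 2.39% in replicates 1 to 4. Replicate 6 held enterocyte transcripts (Apoa1 at 358 FPKM and Sis at 64.0) with Gata4 at 0 and Lyz1 at 6.69 FPKM. How these transcripts came to be in the 2 libraries was not tested. Both are male by Ddx3y and Xist, and their names carry a leading number that replicates 1 to 4 lack. Crypts replicates 5 and 6, which the labels write with hyphens, are female. Where leaving out both of these colon libraries moved a printed difference by over 1.5-fold, it is also given without them ("without both"), or without replicate 5 alone where so stated. Every such difference was farther from 0 without them.

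**Figure D1:**
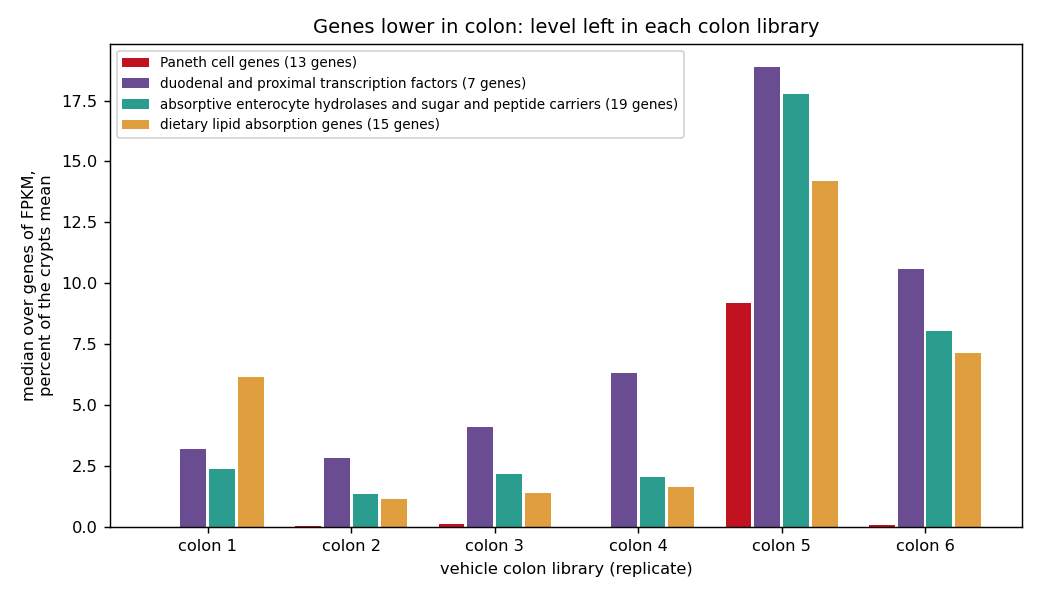
Median level of small intestinal genes in each vehicle colon library, as a percentage of the mean over the 6 crypts libraries, for the called members of 4 lists that were lower in colon; the vertical axis starts at 0. Colon replicate 5 stands highest in all 4 lists, with Paneth cell genes at 9.18%, and replicate 6 is second highest in the other 3 lists.

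The crypts libraries varied too, in the amount of enterocyte RNA. The summed FPKM of the 22 hydrolase and carrier genes ran from 3403 in crypts replicate 4 to 15301 in replicate 6. Replicate 4 had the lowest level of Lct (11.3 FPKM, against 137 to 493 in the others) and the highest of Lyz1. Enterocyte transcripts were part of every crypts library.

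**Figure D2:**
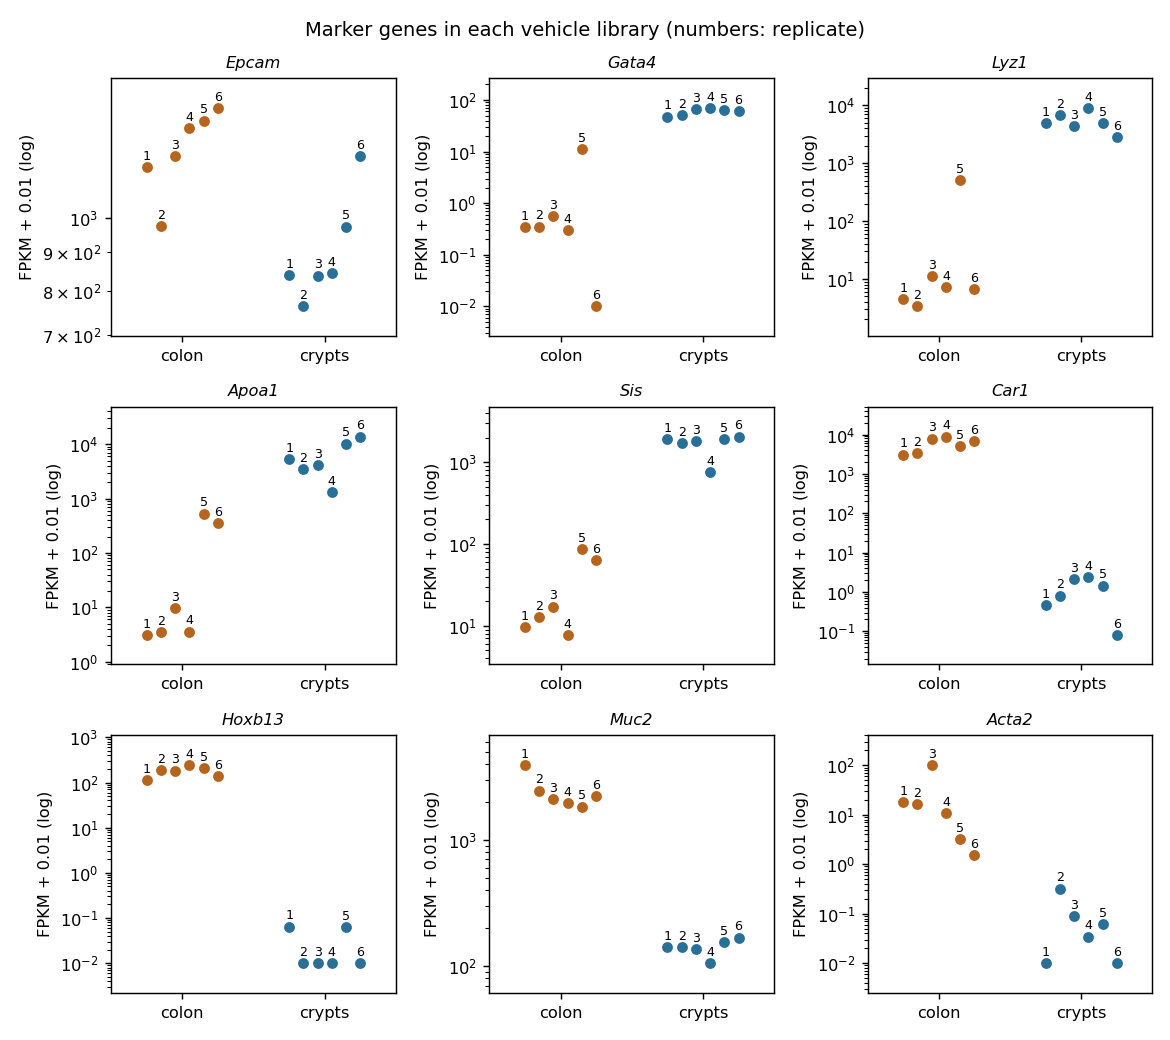
FPKM plus 0.01 on log axes for 9 marker genes in the 6 vehicle colon and 6 vehicle crypts libraries, with the replicate number at each point. Gata4, Lyz1, Apoa1 and Sis are raised in colon replicate 5, Apoa1 and Sis also in replicate 6, and Acta2 peaks in colon replicate 3 at 101 FPKM.

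Of the 11263 genes tested, 6215 were called, which is 55.2%. In colon 3250 (28.9%) were higher and 2965 (26.3%) lower, and the 4-fold mark was passed by 617 genes (5.48%) that were higher and 319 (2.83%) that were lower. With so high a background, the lists below are described by how many members moved which way and how far; the median over all genes tested was 0.01. If the libraries were centred on 12 epithelial genes in place of all genes, the split became 4241 higher and 1100 lower, or 79.4% higher in place of 52.3%, and the median of all genes tested lay at 0.32. The differences of those 12 genes then had a median of 0.89 in place of 0.59. That centring therefore did not match the groups for epithelial genes, and it serves here only as another scaling. That centring ended the calls of Acat1, Ascl2, Bdh1, Hsp90aa1, Hspa8, Insm1, Mcm2, Nkx2-2, Nr1i2, Rfx6 and Slc11a2, all described below as lower. Without colon replicates 5 and 6, 5771 genes were called, 3028 higher and 2743 lower, and Ascl2, Epcam, Hsp90aa1, Hspa8, Slc40a1 and Tff3 lost their calls. Sex was unbalanced between the groups; with the sex pattern as a covariate, 5797 genes were called, 3081 higher and 2716 lower, and Aqp3, Hspa8, Nr1i2, Slc40a1 and Tff3 lost their calls. With replicates 1 to 4 of each group alone, Ascl2, Hsp90aa1, Hspa8 and Nr1i2 did.

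**Figure D3:**
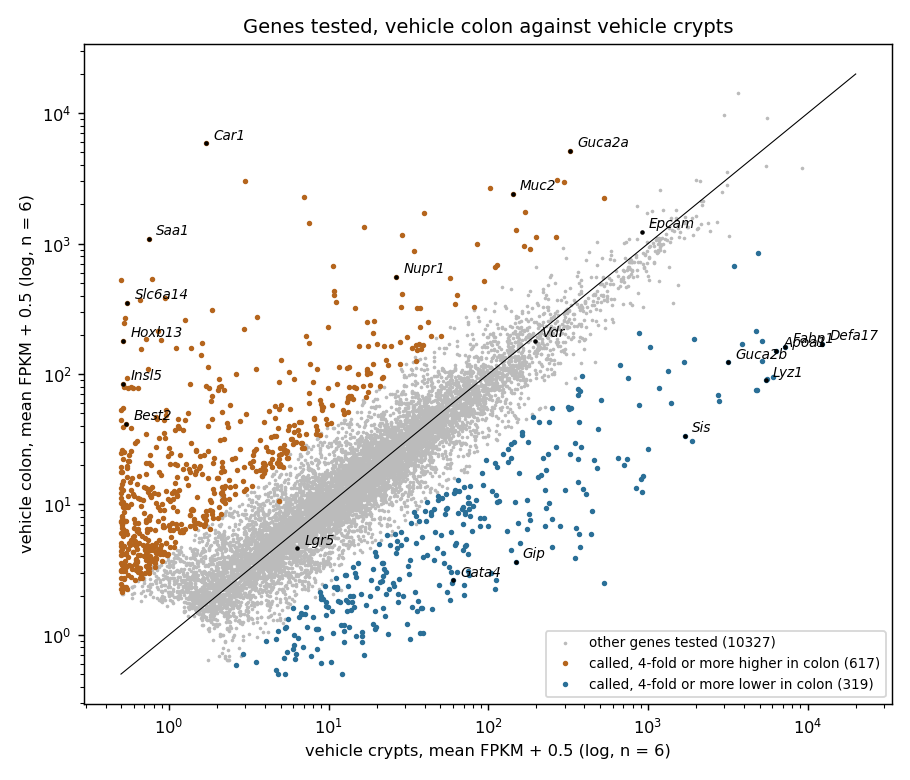
Mean FPKM plus 0.5 in vehicle colon against vehicle crypts for the 11263 genes tested, on log axes, with called genes beyond 4-fold in colour and the line of equal level drawn. Car1 and Saa1 lie near the floor of the crypts axis, and Defa17, Lyz1, Fabp1 and Apoa1 lie far below the line.

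The largest differences in favour of colon, among genes with a mean of 5 FPKM or more there, were led by Car1 (11.85 ± 0.40, adjusted p = 4.0e-11). Saa1, an acute-phase serum amyloid, stood at 858 to 1559 FPKM (median 1003) in colon and 0 to 1.34 (median 0) in crypts; its difference was 10.69 ± 0.29, adjusted p = 4.6e-12. Slc6a14, an apical carrier of neutral and cationic amino acids, stood at 246 to 532 FPKM (median 347) in colon and 0 to 0.107 (median 0.0411) in crypts and differed by 9.29 ± 0.16. Tgm3, a protein-crosslinking transglutaminase, differed by 9.04 ± 0.24, the P450 gene Cyp2d34 by 8.82 ± 0.26, and Sval1 by 9.43 ± 0.19. Slc6a14 and Saa1 were barely detected in crypts. The remaining 4 of the 10 largest were St6galnac6, Atp12a, Hoxb13 and Mir196a-1.

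Mir196a-1, the hairpin of a microRNA encoded in the Hoxb cluster, was listed at 254 to 978 FPKM (median 466) in colon and at 0 in every crypts library, so no fold is given. The effective length of so short a feature makes its FPKM uncertain, and reads of a longer precursor cannot be told from the hairpin here. Its mature product is shown because microRNAs of this family are known to target HOX messages; the sequence is from RefSeq on GRCm38.p6 (chr11:96265187-96265208, plus strand), with the seed in capitals.
mmu-miR-196a-5p: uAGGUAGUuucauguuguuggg

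The regional transcription factors separated the organs. Of 19 posterior factors matched, 13 were tested, and all 13 were higher in colon, with a median difference of 4.73. Hoxb13, the last gene of the Hoxb cluster, stood at 115 to 243 FPKM (median 184) in colon and 0 to 0.0543 (median 0) in crypts (8.40 ± 0.15, adjusted p = 1.0e-13). Hoxb9 differed by 6.74 ± 0.09 and Hoxb6 by 5.80 ± 0.22. Hoxd13 stood at 18.8 to 33.6 FPKM (median 20.6) in colon and Hoxa13 at 13.1 to 20.3 FPKM (median 17.5), and both were listed at 0 in every crypts library.

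The 6 posterior factors that failed the filter (Hoxc9, Hoxd8, Hoxd9, Hoxd11, Hoxd12 and Evx2) lay between 0 and 1.92 FPKM in colon. A posterior factor that is almost silent in crypts passes the filter only through colon, so the count and median of those tested are a description.

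Of 10 proximal factors, 7 were lower in colon and 2 higher. Gata4 differed by -5.59 ± 0.59 with all libraries and by -6.25 ± 0.18 without colon replicate 5. Pdx1, the duodenal and pancreatic homeobox factor, stood at 0.294 to 7.71 FPKM (median 0.506) in colon and 14.6 to 30.8 (median 24.2) in crypts (-4.01 ± 0.49, or -4.70 ± 0.22 without both), and Onecut2 differed by -4.46 ± 0.40. Creb3l3, which drives apolipoprotein genes, differed by -3.80 ± 0.45, and the nuclear receptor gene Hnf4g by -3.13 ± 0.24. The GATA family was graded, with differences of -3.26 for Gata5 and -1.24 for Gata6, and Gata6 stood at 27.4 to 31.1 FPKM (median 29.2) in colon. Klf4, a factor of goblet and surface cells, and Foxa1, listed with this group for its foregut role, went the other way by 3.13 ± 0.25 and 2.62 ± 0.15. Isx, which limits vitamin A uptake, stood at 52.6 against 64.3 FPKM at the group medians and was not called (-0.17 ± 0.15, adjusted p = 0.375).

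Genes of digestion and absorption were lower in colon almost throughout. Of 22 brush border hydrolase and nutrient carrier genes, 19 were lower and none higher, with a median of -3.89. Sis, the sucrase-isomaltase gene, stood at 7.76 to 87.5 FPKM (median 15.0) in colon and 765 to 2068 (median 1873) in crypts. It differed by -6.21 ± 0.54, adjusted p = 5.3e-07, and by -7.11 ± 0.29 without colon replicates 5 and 6. Slc2a2, the basolateral glucose carrier, stood at 0.152 to 20.0 FPKM (median 0.315) in colon and 125 to 575 (median 370.2) in crypts (-7.35 ± 0.86, or -8.84 ± 0.35 without both).

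Lct, lactase, stood at 0.0547 to 28.6 FPKM (median 0.168) in colon and 11.3 to 493 (median 193) in crypts, with colon replicate 5 (28.6) and 6 (13.9) above crypts replicate 4 (11.3). The groups of Lct therefore overlapped, and its difference of -6.27 ± 1.16, adjusted p = 4.5e-04 became -7.95 ± 0.85 without the 2 colon libraries and -6.997 without crypts replicate 4. Treh, trehalase, overlapped in the same way. In all, 3 members were not called: Slc15a1, the peptide carrier PEPT1, at 58.6 against 64.5 FPKM at the medians, Slc3a1 at 47.2 against 62.0 FPKM, and Xpnpep2 at 5.42 against 11.7 FPKM. Without crypts replicate 4 the last 2 passed as lower, and without crypts replicate 2 Xpnpep2 did. Slc5a1, the sodium-glucose carrier, had a median of 114 FPKM in colon against 537 to 2855 FPKM (median 1626) in crypts.

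Of 19 genes of dietary lipid uptake, 15 were lower in colon and none higher, with a median of -3.15. Fabp1, a cytosolic fatty acid carrier, stood at 4.53 to 724 FPKM (median 7.51) in colon and 2086 to 13952 (median 6042) in crypts. Its difference was -7.89 ± 1.17, and -9.89 ± 0.46 without colon replicates 5 and 6, which held 724 and 219.7 FPKM. Apoa1 differed by -7.80 ± 1.27, or -9.96 ± 0.57 without both, Apoa4 by -7.70 ± 1.36, or -9.93 ± 0.72 without both and Apoc3 by -7.55 ± 1.23, or -9.48 ± 0.79 without both, the 3 being apolipoproteins of one gene cluster. Mttp, which loads lipid onto apolipoprotein B, differed by -6.67 ± 0.93, or -8.28 ± 0.30 without both, and Npc1l1, the cholesterol importer, by -5.60 ± 0.71, or -6.82 ± 0.30 without both. The 4 not called were the fatty acid carrier gene Fabp2 (489 against 1018 FPKM at the medians), Cd36, Scarb1 and the lipid droplet gene Plin2 (84.9 against 69.3 FPKM at the medians). Fabp2 and Cd36 passed as lower without crypts replicate 4, and Plin2 as higher without colon replicate 1 or crypts replicate 5.

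Promoters of 3 of these genes are shown with that of Slc10a2, a bile acid carrier gene that was higher in colon, because they hold short matches to motifs of intestinal factors. Each is the 250 bases before the start in RefSeq on GRCm38.p6, 5′ to 3′ on the gene's strand. Capitals mark 3 motifs, on either strand. The letters AGATAA are a motif of zinc-finger factors of the Gata family. HNF1 factors bind sites that hold GTTAAT. CDX homeobox factors bind TTTATNG. The 4 lie at chr3:72967864-72968113 (minus strand, Sis), chr1:128328319-128328568 (minus strand, Lct), chr6:71199629-71199878 (plus strand, Fabp1) and chr8:5105288-5105537 (minus strand, Slc10a2).
Sis: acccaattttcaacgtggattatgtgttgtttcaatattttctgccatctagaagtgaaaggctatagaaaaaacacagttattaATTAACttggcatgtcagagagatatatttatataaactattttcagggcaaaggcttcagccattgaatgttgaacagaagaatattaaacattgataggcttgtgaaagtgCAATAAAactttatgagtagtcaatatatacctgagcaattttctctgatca
Lct: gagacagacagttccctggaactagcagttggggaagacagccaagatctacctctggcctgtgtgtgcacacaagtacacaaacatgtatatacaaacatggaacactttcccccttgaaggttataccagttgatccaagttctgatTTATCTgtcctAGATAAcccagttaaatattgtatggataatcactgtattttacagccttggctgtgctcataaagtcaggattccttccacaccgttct
Fabp1: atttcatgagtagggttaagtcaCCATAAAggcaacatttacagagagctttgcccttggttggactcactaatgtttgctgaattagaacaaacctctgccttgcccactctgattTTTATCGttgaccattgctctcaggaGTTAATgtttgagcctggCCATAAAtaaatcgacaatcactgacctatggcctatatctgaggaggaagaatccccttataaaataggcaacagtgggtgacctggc
Slc10a2: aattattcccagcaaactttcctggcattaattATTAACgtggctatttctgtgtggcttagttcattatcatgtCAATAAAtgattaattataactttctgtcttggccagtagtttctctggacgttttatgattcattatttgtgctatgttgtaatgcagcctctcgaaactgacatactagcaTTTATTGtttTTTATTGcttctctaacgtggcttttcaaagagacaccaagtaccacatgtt

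A script found 1 HNF1 motif and 1 CDX motif before Sis, 2 GATA motifs before Lct, 1 HNF1 motif and 3 CDX motifs before Fabp1, and the same numbers before Slc10a2. Over one promoter of each gene, AGATAA was in 33 of 215 promoters of genes 4-fold or more lower in colon (15.3%), in 31 of 421 of those higher (7.36%) and in 483 of all 8012 (6.03%). GTTAAT was in 12.1%, 4.99% and 3.93% and TTTATNG was in 14.9%, 9.74% and 6.45% of the same sets. Mean GC content was 54.7%, 57.7% and 59.9%, so the sets differ in base composition, whose part in these shares was not tested. No 2 matches shown share bases. A match is a run of letters in this window and not a measured binding site.

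Bile acid and iron genes moved both ways. Slc10a2, the apical importer of bile acids best known from the ileum, was higher, at 48.2 to 135 FPKM (median 75.7) in colon and 0.443 to 1.86 (median 0.629) in crypts (5.97 ± 0.28, adjusted p = 1.0e-09). Fabp6, the cytosolic bile acid carrier, was higher by 5.37 ± 0.48, Abcc3, a basolateral exporter, by 1.99 ± 0.15, and the bile acid receptor gene Nr1h4 by 1.73 ± 0.28. Nr0b2, a target of that receptor, was lower (-3.71), and so was the apical exporter gene Abcc2 (-4.26 ± 0.71, or -5.36 ± 0.41 without both). Osta and Ostb, the basolateral exporter pair, stood at medians of 135 against 169 FPKM and 236 against 199 FPKM and were not called, and Fgf15 and Gpbar1 failed the filter. In all, 4 of 8 tested bile acid genes were higher and 2 lower, where 28.9% and 26.3% of all genes tested were.

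Of 11 tested iron genes, 6 were lower in colon and 4 higher, where 26.3% and 28.9% of all genes tested were. Cybrd1, the duodenal ferric reductase, stood at 0.193 to 1.15 FPKM (median 0.402) in colon and 8.09 to 31.5 (median 12.9) in crypts (-3.94 ± 0.29, adjusted p = 1.0e-07). Slc46a1, a proximal folate and heme carrier, was lower (-2.19 ± 0.48), as were Slc11a2, the ferrous iron importer (-0.80 ± 0.23), and Fth1, ferritin heavy chain (-1.18 ± 0.24). Hmox1, which breaks down heme, was higher by 2.18 ± 0.20 and ferritin light chain gene Ftl1 by 0.90 ± 0.23. Slc40a1, the iron exporter ferroportin, stood at 70.0 to 202 FPKM (median 105) in colon and 42.7 to 135 (median 64.3) in crypts and passed at the margin (0.70 ± 0.27, adjusted p = 0.0436). The call was lost when any single library other than colon replicate 1 or crypts replicate 6 was left out.

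Salt, water and bicarbonate transport genes were mostly higher in colon. Of 27 genes matched, 25 were tested. Of these, 19 were higher in colon and 2 lower, with a median of 2.83. Among those matched, 8 lay under 1 FPKM in every crypts library and could pass the filter only through colon. The count and median are therefore a description. Beyond Car1, Car4, a membrane carbonic anhydrase, stood at 1285 to 2176 FPKM (median 1718) in colon and 21.8 to 59.6 (median 39.4) in crypts (5.48 ± 0.21). Atp12a, the colonic proton-potassium pump, stood at 61.5 to 464 FPKM (median 205) in colon and 0 to 0.0343 (median 0.0259) in crypts (8.61 ± 0.37). Fxyd4, a regulator of the sodium pump, differed by 7.62 ± 0.28 and the water channel gene Aqp8 by 7.18 ± 0.33.

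The epithelial sodium channel showed its 3 subunits at different levels. Scnn1a stood at 75.1 to 104 FPKM (median 83.5) in colon and 6.50 to 9.92 (median 7.04) in crypts, whereas Scnn1b stood at 7.84 to 19.3 FPKM (median 15.0) in colon and at most 0.0247 in crypts. Scnn1g ran from 1.44 in colon replicate 5 to 29.9 in replicate 2, and was at most 0.102 in crypts. Around the channel, the mineralocorticoid receptor gene Nr3c2 differed by 1.82 ± 0.16 and Hsd11b2, which shields that receptor from glucocorticoids, by 5.02 ± 0.21.

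Slc26a3, the chloride-bicarbonate exchanger of the colon, was present in crypts too, at 523 to 934 FPKM (median 670.2) in colon and 58.3 to 153 (median 114) in crypts, a difference of 2.64 ± 0.22. The related exchanger gene Slc26a6 was lower, at 0.792 to 25.1 FPKM (median 1.00) in colon and 88.3 to 310.3 (median 147) in crypts (-5.73 ± 0.67, or -6.85 ± 0.28 without both). Best2 and Ano1, anion channel genes, stood at medians of 41.5 and 37.3 FPKM in colon and at no more than 0.130 in crypts. The sodium-proton exchanger genes Slc9a2 and Slc9a3 differed by 2.15 and 1.73. Cftr (33.4 against 42.8 FPKM at the medians) and Slc12a2 (84.1 against 79.2 FPKM), which drive chloride secretion, were not called. Aqp3, a water channel, was lower in colon (-1.86 ± 0.65, adjusted p = 0.0257) with overlapping groups, and lost its call without colon replicate 1, 2 or 3 or crypts replicate 3, 5 or 6.

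The 2 guanylin hormones were inverse. Guca2a, guanylin, stood at 3539.9 to 6342 FPKM (median 5377) in colon and 234 to 473 (median 275) in crypts (4.03 ± 0.21, adjusted p = 3.7e-09). Guca2b, uroguanylin, stood at 70.8 to 202 FPKM (median 106) in colon and 433 to 5963 (median 2686) in crypts (-4.39 ± 0.52, adjusted p = 9.7e-06). Their common receptor gene Gucy2c stood at 112 to 146 FPKM (median 121) in colon and 75.2 to 179 (median 138) in crypts and was not called (-0.06 ± 0.17, adjusted p = 0.762).

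Of 11 tested genes of short-chain fatty acid uptake and use, 6 were higher in colon and 3 lower. Over all genes tested, 28.9% were higher and 26.3% lower. Slc5a8, the sodium-coupled carrier of butyrate, stood at 54.5 to 118 FPKM (median 73.3) in colon and 0.0120 to 0.585 (median 0.0615) in crypts (6.94 ± 0.21). Slc16a1, the proton-coupled monocarboxylate carrier, differed by 0.99 ± 0.17. Ffar2, a receptor for acetate and propionate, differed by 2.61 ± 0.17, while the receptor gene Ffar3 stood at 1.05 against 0.817 FPKM at the medians and was not called. Bdh1 and Acat1, enzymes of ketone body metabolism, were lower (-0.57 ± 0.10 and -0.71 ± 0.10). With the epithelial centring 0 genes of this list were lower.

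Paneth cell genes gave the largest differences against colon. Of 17 matched, 16 were tested; 13 were lower and 2 higher, with a median of -8.20. All 10 of the largest differences against colon were such genes or Reg1, a secreted lectin. Defa17, a defensin, stood at 0 to 999.7 FPKM (median 6.12) in colon and 7437 to 16453 (median 12226) in crypts. Its difference was -10.38 ± 1.32, adjusted p = 1.8e-05, or -11.75 ± 0.63 without colon replicate 5, which held 999.7 FPKM, and -9.55 without colon replicate 4. The defensin genes are near-identical copies, so reads may be shared among Defa17, Defa-rs7, Defa5, Defa3, Defa20, Defa21 and Defa22, and their separate values are uncertain.

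Lyz1 differed by -8.56 ± 0.95, adjusted p = 5.2e-06, or -9.61 ± 0.32 without colon replicate 5. Mmp7, the protease that activates the defensins, differed by -5.53 ± 0.53, and Itln1, a lectin, by -7.89 ± 0.85, or -8.72 ± 0.45 without both. Ang4, an antimicrobial ribonuclease listed with Paneth cells, stood at 116 to 840.1 FPKM (median 437) in colon and 336 to 1353 (median 650.1) in crypts; the groups overlapped and it was not called (-0.89 ± 0.51, adjusted p = 0.158). The 2 members that were higher in colon were Nupr1, a stress-linked chromatin protein (4.41 ± 0.17), and Cd24a, a surface glycoprotein (0.83 ± 0.15).

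Of 19 tested goblet cell genes, 17 were higher in colon and 1 lower, with a median of 2.25. Muc2, the gel-forming mucin, stood at 1839 to 3912 FPKM (median 2156) in colon and 106 to 168 (median 141) in crypts (4.06 ± 0.18, adjusted p = 5.2e-10). Klk1 differed by 4.71 ± 0.12, Creb3l1 by 3.37 ± 0.20 and the maturation factor gene Spdef by 2.27 ± 0.30. Clca3, the symbol that older annotation uses for the secreted goblet cell protein, stood at 2262 to 4267 FPKM (median 2913) in colon and 213 to 427 (median 289.6) in crypts. The member that was lower is the row named Clca1, at no more than 1.63 FPKM in colon; in such annotation that symbol can belong to another gene of the family. Tff3, the trefoil peptide, differed by a smaller step (0.64 ± 0.21, adjusted p = 0.0192) and was not called with the sex covariate or without both libraries, and Spink4 was not called (1833 against 1593 FPKM at the medians).

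Retnlb, a goblet cell protein made in response to bacteria, was far higher in colon but uneven there. It ran from 43.3 FPKM in colon replicate 6 and 73.5 in replicate 3 to 469 in replicate 2, against 0.117 to 2.60 FPKM (median 0.4497) in crypts (7.51 ± 0.60, adjusted p = 2.2e-07).

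In the list of mucins and the enzymes that build their sugars, 18 of 23 tested genes were higher in colon and 2 lower. Of 26 matched, 6 lay under 1 FPKM in every crypts library and could pass the filter only through colon. St6galnac6, a sialyltransferase, stood at 295 to 468 FPKM (median 379) in colon and 0.248 to 0.741 (median 0.451) in crypts (8.67 ± 0.14, adjusted p = 4.3e-14). Fut2, which adds terminal fucose, differed by 5.39 ± 0.25, and B3gnt6, the core 3 synthase, by 5.01 ± 0.26. Of the core 2 enzymes, Gcnt1 was higher by 4.94 ± 0.17, Gcnt3, counted with the goblet cell genes, by 1.55 ± 0.16, and Gcnt4 was lower (-1.40 ± 0.15). The surface mucin gene Muc1 differed by 4.07 ± 0.28, whereas Muc13 stood at 1279 against 1291 FPKM at the medians and was not called.

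Of 15 tested hormone genes of enteroendocrine cells, 4 were higher in colon and 5 lower, where 28.9% and 26.3% of all genes tested were. With libraries centred on epithelial genes 8 were higher and 5 lower. Insl5, a hormone of colonic L cells, stood at 62.3 to 122 FPKM (median 74.9) in colon and 0 to 0.110 (median 0) in crypts (7.30 ± 0.16, adjusted p = 4.9e-13). Pyy stood at 139 to 217 FPKM (median 172) in colon and 0.529 to 2.21 (median 1.05) in crypts (6.83 ± 0.20), Nts, neurotensin, differed by 3.64 ± 0.45, and Gcg, the source of GLP-1, by 1.05 ± 0.15.

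Gip, the incretin of duodenal K cells, stood at 0 to 13.2 FPKM (median 0.132) in colon and 77.4 to 215 (median 140.0) in crypts (-6.65 ± 0.77, or -7.99 ± 0.25 without both); colon replicates 5 and 6 held 13.2 and 5.20 FPKM and the other 4 at most 0.264. Ghrl, ghrelin, differed by -4.97 ± 0.51, or -5.60 ± 0.37 without both, Cck, cholecystokinin, by -3.57 ± 0.26, Sst, somatostatin, by -2.31 ± 0.24 and Tac1 by -1.46 ± 0.23. The general markers Chga (101 against 83.2 FPKM at the medians) and Chgb (129 against 159 FPKM), and Tph1, the serotonin-making enzyme, were not called. Chgb passed as lower without colon replicate 6, Chga as higher without crypts replicate 5, and Chga and Tph1 as higher with the epithelial centring. Gal, Vip, Penk and Adcyap1 failed the filter and were listed at 0 in every crypts library.

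The transcription factors of this lineage were lower in colon in 7 of 9 tested cases and higher in none, by smaller steps. Neurog3, the factor that commits cells to the lineage, stood at 1.16 to 2.20 FPKM (median 1.72) in colon and 5.56 to 6.99 (median 6.36) in crypts (-1.62 ± 0.12, adjusted p = 1.4e-07). Nkx2-2 (-0.92 ± 0.18), Rfx6 (-0.64 ± 0.15) and Insm1 (-0.51 ± 0.12) were lower too. With libraries centred on epithelial genes, 1 gene of this list was lower. Of 11 tuft cell genes tested 3 were higher and 4 lower, where 28.9% and 26.3% of all genes were; 1 was lower with the epithelial centring and 0 with replicates 1 to 4 alone, with 3 higher in both. Dclk1 (3.01 against 3.12 FPKM at the medians) and Trpm5 (5.35 against 5.04 FPKM) were not called.

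Genes of dividing cells were lower in colon, 19 of 23 tested with none higher, at a median of -1.25. Mki67, a marker of cycling cells, stood at 12.7 to 19.0 FPKM (median 18.2) in colon and 22.4 to 57.4 (median 47.8) in crypts (-1.23 ± 0.24, adjusted p = 6.2e-04). Rrm2, a subunit of ribonucleotide reductase, stood at 5.98 to 10.8 FPKM (median 8.60) in colon and 50.7 to 105 (median 69.3) in crypts (-2.99 ± 0.20, adjusted p = 4.9e-08). Top2a differed by -1.89 ± 0.20, the cyclin gene Ccnb1 by -1.81 ± 0.15 and the replication helicase gene Mcm2 by -1.02 ± 0.24. Plk1, a mitotic kinase, was an exception, at 49.0 to 69.6 FPKM (median 60.0) in colon and 31.2 to 73.8 (median 46.8) in crypts and not called (0.37 ± 0.18, adjusted p = 0.107); without crypts replicate 4 it passed as higher. Crypts replicates 5 and 6, with the most enterocyte RNA, had the lowest Mki67 of the crypts group, at 25.5 and 22.4 FPKM. With libraries centred on epithelial genes, 14 cell cycle genes were lower.

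Stem cell and Wnt target genes did not move as a block. Of 19 tested, 2 were higher in colon and 7 lower, where 28.9% and 26.3% of all genes tested were. Their median was -0.24, and it turned to 0.07 with libraries centred on epithelial genes. Without both colon libraries 21 were tested, 4 were higher and 8 lower, at a median of -0.29. Lgr5, the marker of crypt base stem cells, stood at 2.67 to 5.72 FPKM (median 4.38) in colon and 3.41 to 7.49 (median 6.10) in crypts and was not called (-0.46 ± 0.21, adjusted p = 0.0768), though it passed as lower without colon replicate 2 or crypts replicate 6. Smoc2, which shares its cells, was lower, at 5.66 to 14.6 FPKM (median 9.92) in colon and 29.8 to 54.2 (median 40.3) in crypts (-2.002 ± 0.19, adjusted p = 1.3e-06). Msi1 (-2.14 ± 0.18), Cdca7 (-1.87 ± 0.15), Axin2, a direct Wnt target (-1.18 ± 0.19), and Ascl2, a stem cell factor (-1.06 ± 0.35), were lower as well. Prom1, prominin, was higher (1.61 ± 0.19).

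Among junction genes 10 of 14 tested were higher in colon and 1 lower. Cldn8, a sealing claudin of sodium-absorbing epithelia, stood at 19.1 to 66.4 FPKM (median 34.996) in colon and 0.240 to 0.916 (median 0.691) in crypts (4.98 ± 0.28). Cldn4, another sealing claudin, differed by 1.65 ± 0.37 and Cldn3 by 1.33 ± 0.13. Cldn15, which forms a paracellular sodium pore, was lower, at 105 to 162 FPKM (median 110.4) in colon and 339 to 608 (median 440.0) in crypts (-1.88 ± 0.17, adjusted p = 5.7e-07). Cldn2, also a pore claudin, overlapped between groups and was not called (71.4 against 124 FPKM at the medians), but passed without colon replicate 1. Among keratins and colon surface genes 12 of 15 were higher and none lower, led by Ceacam10 (5.78 ± 0.44) and Ceacam1, an adhesion receptor at 2446 to 4090.4 FPKM (median 2972) in colon and 213 to 356 (median 258) in crypts.

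Mucosal defence genes moved both ways, with 13 of 25 tested higher in colon and 10 lower, where 28.9% and 26.3% of all genes tested were. Of 27 matched, 5 lay under 1 FPKM in every crypts library and could pass the filter only through colon. Lypd8, a secreted inhibitor of flagellated bacteria that the tables list by an older symbol (2210415F13Rik), stood at 10896 to 16816 FPKM (median 15048) in colon and 3322 to 4013 (median 3652) in crypts (1.97 ± 0.17). The sensors Tlr4 and Tlr5 differed by 3.49 ± 0.15 and 2.39 ± 0.19, and the oxidase genes Nox1 and Duoxa2 by 3.42 ± 0.31 and 3.24 ± 0.44. Reg1 was lower in colon (-8.41 ± 1.19, or -10.43 ± 0.32 without both), as were Reg3a (-5.28 ± 0.67, or -6.17 ± 0.56 without both), Reg3g (-3.75 ± 0.69, or -4.53 ± 0.61 without both) and Reg3b (-2.53 ± 0.63), all secreted lectins. Ccl25, the chemokine that draws lymphocytes to the small bowel, stood at 3.33 to 76.9 FPKM (median 6.50) in colon and 502 to 1001 (median 655) in crypts (-6.06 ± 0.61, or -7.04 ± 0.25 without both).

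Of 38 tested genes of drug and toxin handling, 17 were lower in colon and 9 higher, where 26.3% and 28.9% of all genes were. Cyp3a11, a major P450 of the small intestine, stood at 0.246 to 137 FPKM (median 0.556) in colon and 15.7 to 1011 (median 193) in crypts, with colon replicate 5 at 137 and crypts replicate 4 at 15.7 so that the groups overlapped (-5.65 ± 1.37, adjusted p = 0.00339). Without colon replicates 5 and 6 its difference was -7.76 ± 0.88, and without crypts replicate 4 it was -6.35. Cyp2c55, another P450, was higher, at 487 to 1161 FPKM (median 579) in colon and 0.709 to 24.3 (median 7.65) in crypts (6.38 ± 0.54), as were the sulfotransferase gene Sult1a1 (5.45 ± 0.33) and the efflux pump gene Abcb1a (2.34 ± 0.36). The xenobiotic receptor genes Nr1i3 and Nr1i2 were lower (-3.08 ± 0.50, or -3.77 ± 0.38 without both and -0.68 ± 0.23), the second not without crypts replicate 1, with replicates 1 to 4 of each group alone, with the sex covariate or with the epithelial centring.

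Immediate early and stress genes, which are known to respond to tissue handling, were higher in colon in 13 of 19 tested cases and lower in 3, or in 1 with the epithelial centring or without both libraries. Dusp1 stood at 16.7 to 25.0 FPKM (median 21.1) in colon and 0.296 to 3.34 (median 1.53) in crypts (3.50 ± 0.32, adjusted p = 9.0e-07), Nr4a1 differed by 2.79 ± 0.39, Atf3 by 2.06 ± 0.34 and Jun by 1.64 ± 0.16. Fos overlapped and was not called (36.6 against 19.5 FPKM at the medians), but passed without colon replicate 1 or crypts replicate 5 or 6. The chaperone genes Hsph1, Hsp90aa1 and Hspa8 were lower (-1.28, -0.61 and -0.34 in that order), and Hspa8 lost its call without any of 7 libraries taken singly, colon replicates 3 to 6 or crypts replicates 2 to 4. The tissues were isolated differently, and the part of handling in these values was not tested. Among cholesterol synthesis genes 8 of 17 were higher and none lower, where 28.9% and 26.3% of all genes tested were. Without colon replicates 5 and 6 the number of cholesterol synthesis genes higher was 3.

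**Figure D4:**
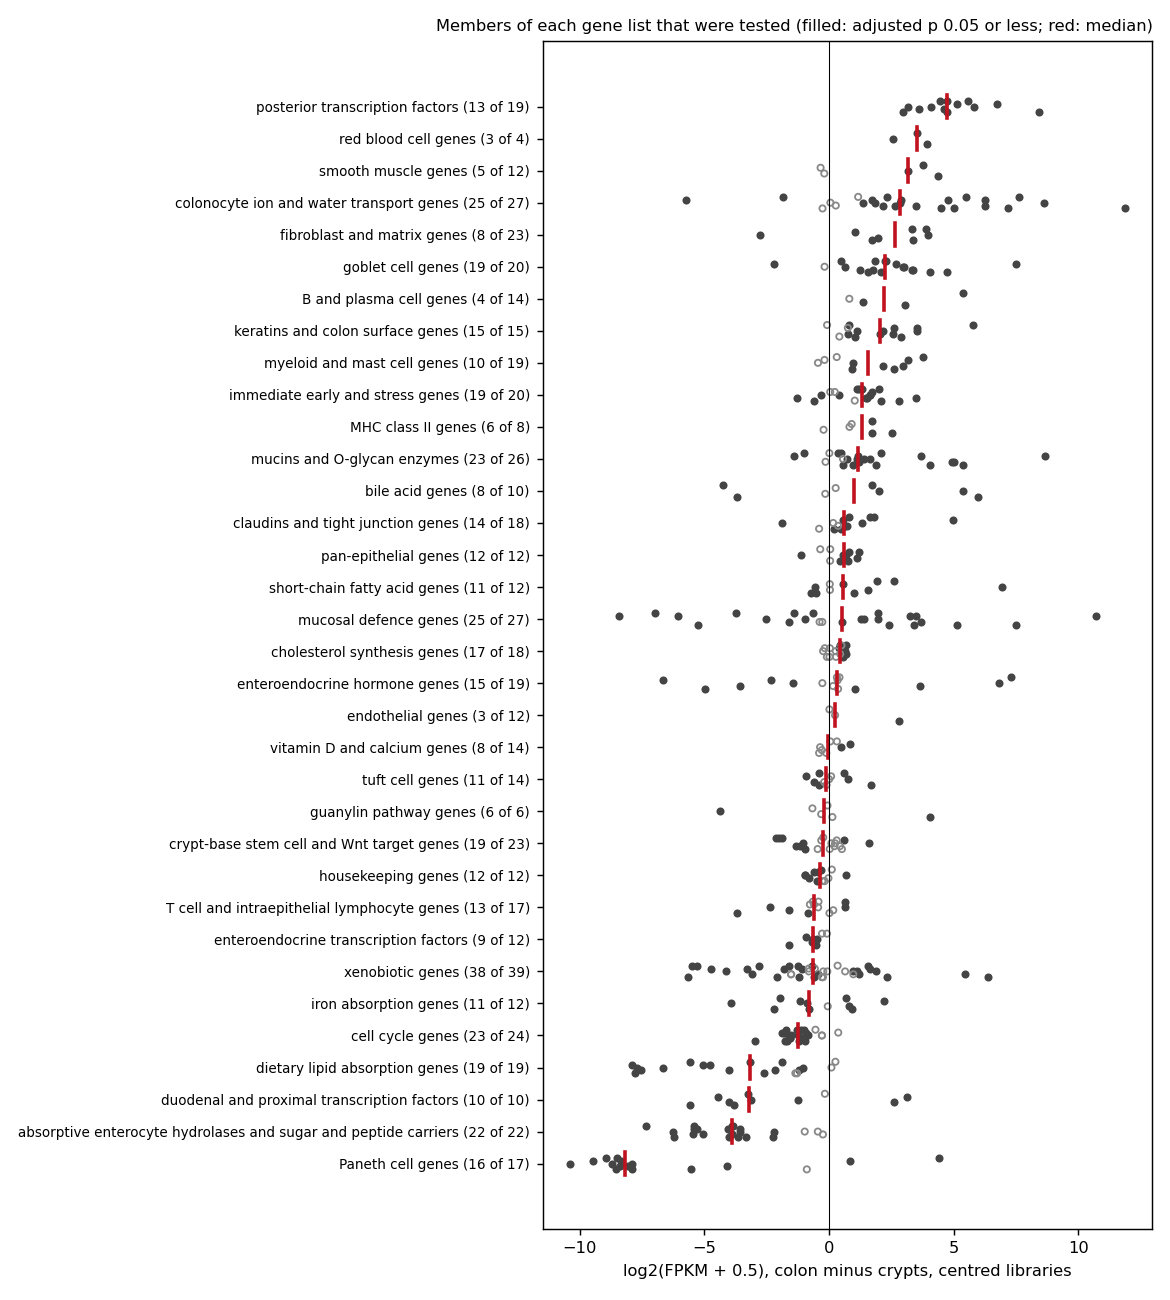
Difference between vehicle colon and crypts on log2(FPKM + 0.5) for every tested member of the 34 lists with 3 or more tested genes, sorted by median; numbers give the tested members of those matched, filled points passed adjusted p 0.05, and red bars are medians. Posterior factors lie wholly to the right at a median of 4.73, and Paneth cell genes mostly to the left at -8.20.

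In the vitamin D and calcium list, 8 of 14 genes were tested, 2 were higher in colon and none lower, at a median of -0.03. The share higher was close to the 28.9% of all genes tested, of which 26.3% were lower. Vdr, the receptor through which the hormone acts, stood at 118 to 208 FPKM (median 189) in colon and 130.1 to 239.6 (median 201) in crypts and was not called (-0.11 ± 0.16, adjusted p = 0.563). S100g, the calcium buffer calbindin-D9k, stood at 115 to 470.0 FPKM (median 148) in colon and 57.1 to 588 (median 266) in crypts and was not called (-0.29 ± 0.50, adjusted p = 0.640), with wide spread in both groups. Atp2b1, the basolateral calcium pump, was higher, at 43.5 to 86.2 FPKM (median 46.8) in colon and 19.5 to 45.4 (median 29.5) in crypts (0.84 ± 0.20, adjusted p = 0.00296), and Cldn12 was higher by 0.46 ± 0.09.

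Trpv6, the apical calcium channel, and Cyp24a1, the hydroxylase that inactivates the hormone, failed the filter. Trpv6 was at 5.02 and 5.29 FPKM in colon replicates 1 and 2 and at 0.427 to 1.73 in the other 4, against 0.0702 to 0.809 FPKM (median 0.142) in crypts. Cyp24a1, a sensitive readout of the hormone, was at 64.7 FPKM in colon replicate 6 and at 0.114 to 5.38 in the other 5, and at 7.35 in crypts replicate 5 against 0.184 to 0.912 in the others. In mice given the hormone it stood at 2388 ± 992 FPKM in colon and 3625 ± 670.4 in crypts (SD, n = 7 and 6). Cyp27b1, Trpv5, Slc8a1 and Calb1 lay under 1 FPKM in all 12 libraries.

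Transcripts of stroma were present in the colon libraries in amounts that varied. Of 23 fibroblast and matrix genes, 21 lay under 1 FPKM in every crypts library. The list's summed FPKM was 25.8 to 223 in colon and 12.4 to 44.9 in crypts. Colon replicates 5 and 6, at 38.1 and 25.8, lay within the crypts range. Yet 11 and 8 of the 23 genes reached 1 FPKM in them, against 2 in each crypts library. The sums alone therefore do not put these colon libraries level with crypts. Of the 8 listed genes that passed the filter, most of them through colon alone, 7 were higher in colon and 1, Fbln1, lower. Dcn, decorin, stood at 2.03 to 37.3 FPKM (median 8.29) in colon and 0 to 0.150 (median 0.0754) in crypts (3.97 ± 0.49, adjusted p = 1.5e-05, or 4.604 ± 0.38 without both), Bgn differed by 3.90 ± 0.41, or 4.49 ± 0.27 without both and Col3a1 by 3.38 ± 0.40, or 3.99 ± 0.21 without both. In this list 15 genes failed the filter, among them the collagen genes Col1a1, at 0.446 to 5.50 FPKM (median 3.07) in colon and 0.0225 to 0.0645 (median 0.0350) in crypts.

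Smooth muscle genes summed to 48.3 to 659 in colon and 28.2 to 42.6 in crypts, with colon the more variable. In crypts 8 of the 12 genes lay under 1 FPKM in every library, so most of the sum there came from the others. Acta2, smooth muscle actin, was at 101 FPKM in colon replicate 3, 10.95 to 18.0 in replicates 1, 2 and 4, 3.16 in replicate 5 and 1.52 in replicate 6, against at most 0.310 in crypts. Its difference was 4.38 ± 0.72, adjusted p = 1.8e-04, or 5.43 ± 0.49 without both and 3.76 without colon replicate 3. Des and Myh11 peaked in replicate 3 too, at 57.7 and 34.3 FPKM. Endothelial genes summed to 6.27 to 29.3 in colon and 3.06 to 5.79 in crypts; Plvap was the 1 of 3 tested that was called (2.82 ± 0.31). No neuron or glia gene of 12 passed the filter, and their sums were 2.53 to 15.7 in colon and 0.853 to 2.55 in crypts.

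**Figure D5:**
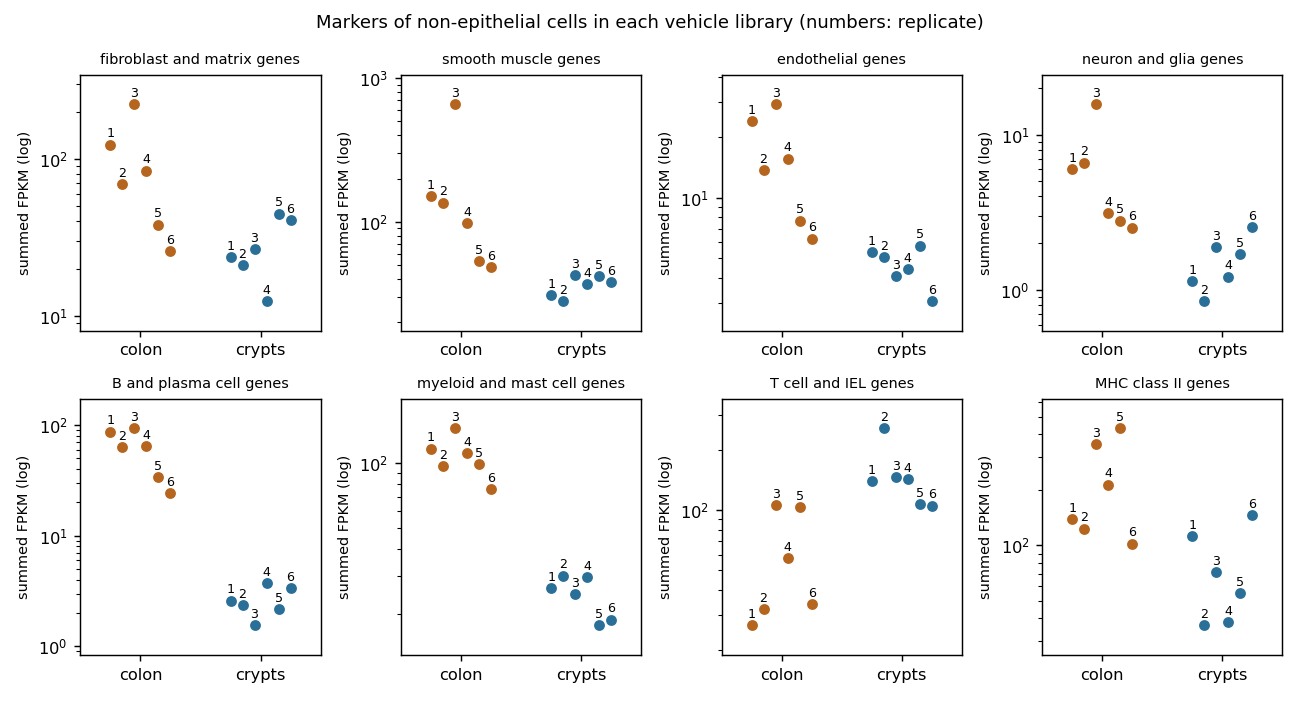
Summed FPKM of 8 lists of non-epithelial markers in each vehicle library, on log axes, with replicate numbers. Colon replicate 3 is highest for fibroblast, smooth muscle, endothelial and neuronal genes and replicates 5 and 6 are lowest among colon libraries for fibroblast and smooth muscle genes; T cell sums overlap, at 26.5 to 106 in colon and 105 to 257 in crypts.

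B and plasma cell genes summed to 24.1 to 93.01 in colon and 1.55 to 3.73 in crypts, with Igj, the joining chain of IgA, at 10.1 to 75.2 FPKM (median 45.2) in colon and 0.193 to 0.845 (median 0.280) in crypts (5.37 ± 0.42, or 5.96 ± 0.24 without both). Of the 10 myeloid and mast cell genes that were tested 7 were higher in colon and none lower, among them Lyz2 (3.77 ± 0.28) and C1qb (3.15 ± 0.35). In that list 10 of 19 matched lay under 1 FPKM in every crypts library and could pass the filter only through colon. Of 13 T cell and intraepithelial lymphocyte genes tested, 4 were lower in colon and 2 higher, with the share lower close to the 26.3% of all genes. The counts were 2 and 2 with the epithelial centring and 6 and 1 without both libraries. Gzma, a granzyme of intraepithelial lymphocytes, ran from 0.0870 FPKM in colon replicate 1 to 29.0 in replicate 5, against 38.3 to 89.4 FPKM (median 50.2) in crypts (-3.68 ± 0.73, adjusted p = 8.2e-04, or -4.27 ± 0.59 without colon replicate 5). Cd3e, of the T cell receptor complex, was not called (1.54 against 2.66 FPKM at the medians), but passed without colon replicate 3.

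MHC class II genes were higher in colon for 3 of 6 tested (5 with the epithelial centring), with H2-Aa at 19.7 to 84.9 FPKM (median 37.1) in colon and 2.19 to 16.3 (median 6.60) in crypts (2.54 ± 0.42, adjusted p = 2.0e-04). Hemoglobin genes were also higher, Beta-s at 6.89 to 34.1 FPKM (median 23.7) in colon and 0.700 to 3.18 (median 1.03) in crypts (3.51 ± 0.40), in 3 of 3 tested. Of 14 pancreatic acinar genes 2 were tested, and Cela1, an elastase also made outside the pancreas, was higher in colon (4.73 ± 0.18). The share of these markers in the differences of epithelial genes was not tested. Among the colon libraries the smooth muscle sum was highest in replicate 3, Muc2 in replicate 1 and Car1 in replicate 4.

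General epithelial genes were themselves higher in colon, 8 of 12 called higher and 1 lower, at a median of 0.59. Krt8 differed by 1.14 ± 0.17, Cdh1, E-cadherin, by 0.67 ± 0.08, and Vil1, villin, by -1.14 ± 0.23. Of 12 housekeeping genes 7 were lower and 1 higher, among them Gapdh (-0.97 ± 0.14) and Sdha (-0.81 ± 0.09), while Hprt (-0.03 ± 0.12) was not called; 2 were lower with the epithelial centring. Under the centring on epithelial genes every difference moved up by about as much as the median of all genes did, so small differences depend on the genes used for centring. The epithelial genes themselves moved up too, to a median of 0.89, so that centring did not level them between the groups.

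The 13 libraries of mice injected with 1,25(OH)2D3 (7 colon, 6 crypts; 10 ng per g, 4 h) share no library with those above and give a repeat of the organ comparison under another treatment. The same fit called 6790 of 11404 genes there (59.5%), 3514 higher in colon (30.8%) and 3276 lower (28.7%), with 686 (6.02%) and 291 (2.55%) beyond 4-fold. Of the 617 genes 4-fold higher in vehicle colon, 600 were tested and 595 were called in the same direction; of the 319 that were 4-fold lower, 312 were tested and 311 were called lower. Of all 6215 calls, 5377 of 6132 tested were called the same way and 7 the opposite way. In the authors' deposited table for these libraries, 609 of the 617 and 314 of the 319 had an adjusted p-value of 0.05 or less in the same direction, against 56.5% of its 16667 genes with an adjusted p-value (32.6% higher and 23.9% lower).

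The authors' deposited log2 fold changes for Car1 (12.29 ± 0.88), Muc2 (3.99 ± 0.14) and Lyz1 (-9.20 ± 0.22) stood beside 12.52 ± 0.51, 4.04 ± 0.14 and -9.13 ± 0.21 in the fit to vitamin D libraries. For S100g, Vdr and Gstm1 the 2 treatments gave other values. By the authors' deposited fold changes, the calcium genes Atp2b1 (0.70 ± 0.12) and Cldn12 (0.32 ± 0.09) were higher in colon, as with vehicle. S100g stood at 565 ± 244 FPKM in colon and 2491 ± 387 in crypts (SD, n = 7 and 6) after the hormone, a difference of -2.26 ± 0.27 (adjusted p = 5.6e-06) beside -0.29 ± 0.50 with vehicle. Vdr differed by -0.58 ± 0.16 (adjusted p = 0.00564) beside -0.11 ± 0.16, and Gstm1, a glutathione transferase, by 0.15 ± 0.38 beside 1.90 ± 0.27. Whether the organ difference itself changed with the hormone was not tested here.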

How the data were processed

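RNA-seq was measured in vehicle-treated colon (6 libraries) and crypts (6), with the 13 libraries of hormone-treated mice as a repeat. The authors deposited FPKM per gene in 1 table for each tissue, for 21441 genes. The submitters' processing notes name kallisto 0.45.0, DESeq 1.28.1, DESeq2 and the build mm9. They do not say which of these made which values. The authors' deposited comparison of the hormone-treated tissues gives, per the file headers, a mean signal (baseMean), log2 fold changes with errors, a score (stat) and p-values. Its header gives no direction; since Car1 is positive and Lyz1 negative there, the sign was read as colon over crypts.

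From FPKM, log2(FPKM + 0.5) was computed, and each column was centred on the median of genes with a mean of 1 or more in both groups. Genes with 1 FPKM or more in 6 or more libraries were fitted with limma 3.58.1 (trend, no covariate) in R 4.3.3, with Benjamini-Hochberg adjustment over all genes tested. Low FPKM values stepped as whole reads in 81.0% to 91.2% of cases (within 0.05 of a read), which gave the depth. That share was not near all values, so no count test was run. Every pair of libraries within a group differed by more than counting noise, with a chi-square per degree of freedom of at least 20.2. On simulated data (10747 genes, 6 against 6), 100 genes were changed 2-fold and 98 genes 4-fold. Of these changes 78.0% and 88.8% were recovered, and 3.51% of the calls in the simulated data were false. The share of false calls in the measured vehicle libraries, where 55.2% of genes were called, was not tested.

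The 36 gene lists hold 619 genes, of which 589 were found under the listed symbol, 8 under an earlier one and 22 not at all; members of several lists count in each. The members and the lists were chosen with earlier results of these data known. Named were up to 4 called genes per list and direction by size, the 10 largest differences each way with a mean of 5 FPKM or more in the higher group, and 8 genes fixed by name. Others were named for their known role, and many of those after their values were seen. Some genes that the rule picks are not reported here. Alternatives were another pseudocount, filter, centring, quantile normalisation, no trend, covariates, a replicate block and leaving out libraries. Sequences are from RefSeq tables on GRCm38.p6, of which 8012 of the 11263 genes tested matched a promoter.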

Additional observations from a re-analysis of the deposited data

Results flagged for a closer look

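In 30 of the 374 groups of 6 libraries tested among the genes named above (8.02%), 1 library stood apart from the other 5 by Dixon's test on centred log2 values. Chance flags about 5% of independent groups. Many of these genes were named after their values were seen, and many flags share a library. The share found therefore cannot be tested against that 5%. Groups under 1 FPKM throughout were not tested.

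Colon replicate 5 was the library set apart in 13 of the 30. It stood highest for the proximal factors Gata4 (11.2 FPKM), Pdx1 (7.71) and Onecut2 (3.59). It also stood highest for the Paneth cell genes Lyz1 (502), Defa-rs7 (156), Defa3 (91.2), Defa5 (76.3), Defa21 (31.6), Defa22 (25.0) and Defa20 (20.4). The xenobiotic receptor gene Nr1i2 (61.7) and the water channel gene Aqp3 (3.24) were highest there too, and Foxa1 was lowest (37.7).

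Crypts replicate 4 was set apart in 7 groups. It was lowest for the enterocyte genes Sis (765 FPKM) and Lct (11.3), the exporter gene Abcc2 (12.6), Nr0b2 (1.96) and Gata6 (52.2), and highest for Foxa1 (12.1) and Ceacam10 (5.56).

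The other 10 were single values. In crypts, replicate 5 was highest for Cyp24a1 (7.35 FPKM), Scnn1a (9.92) and Saa1 (1.34), replicate 6 was highest for Acat1 (99.3) and lowest for Nkx2-2 (2.68), and replicate 2 was highest for Gzma (89.4). In colon, replicate 1 was lowest for Vdr (118), replicate 3 highest for Fabp6 (144), and replicate 6 highest for Cdh1 (448) and lowest for Tac1 (1.98).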

How the results depend on the processing

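Under every alternative that was run, no count of calls changed by over 1.5 times except under 2. Centring on 12 epithelial genes gave 1100 genes lower in vehicle colon, and in the hormone-treated libraries 6191 higher, 1107 lower and 1035 that were 4-fold higher. It subtracts from each library the median level of those 12 genes. The group offset, colon minus crypts, was -0.32 with vehicle and -0.46 after the hormone, and subtracting it raises every difference alike. A mean of 5 FPKM or more gave 396 genes 4-fold higher in vehicle colon, because fewer genes were tested. Leaving out 1 library at a time gave 5941 to 6346 calls in the vehicle libraries (3107 to 3394 higher, 2769 to 2952 lower, 619 to 665 4-fold higher, 301 to 356 4-fold lower) and 6404 to 6867 in the hormone-treated ones (3272 to 3589, 3089 to 3406, 634 to 732 and 284 to 303). Leaving out colon replicates 5 and 6 together, chosen after seeing the data, gave 5771 (3028, 2743, 670 and 360). Of 200 tested genes named above, 168 kept their side of the threshold under all 25 settings, and none reversed. FPKM near 0 limits the genes that are almost silent in 1 organ, whose differences depend on the pseudocount.

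With the replicate number as a block, 6245 genes were called, 3265 higher and 2980 lower; Hspa8 lost its call, and Ang4, Cftr, Fabp2 and Xpnpep2 passed as lower. Same-numbered libraries deviated together with correlations of -0.02, 0.29, 0.006, 0.22, 0.28 and 0.06, not all over 0.1, so the numbers were not taken as pairs. Numbers 5 and 6 are male in colon and female in crypts. Numbers 1 to 4 match in sex, and whether those share an animal is not stated in the labels. In the hormone-treated libraries the correlations of same-numbered libraries 1 to 6 were 0.15, -0.07, 0.14, 0.23, 0.16 and -0.09.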
